A study of Mus musculus with 8 samples.

Results

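The genes examined here are the coreceptor genes Cd4, Cd8a, and Cd8b1 and 3 transcription factor genes that act on them, Zbtb7b, Runx3, and Runx1. They are 6 of the 20170 genes counted, and all 6 passed the filter on low counts. They were chosen by name, with earlier results of these data known. Splenic pan-T cells of 4 groups were sequenced one by one on the 10x Genomics 3′ platform, from WT and SDHA-KO mice and with or without stimulation, with 2 libraries in each group. SDHA-KO mice were Sdha fl/fl with CD4-Cre, and mice of the study were 8 to 12 weeks old. Stimulated cells received anti-CD3 at 5 μg/mL together with anti-CD28 at 2.5 μg/mL for 48 hours, and the other cells received neither. Cre in these mice is driven by regulatory sequence of Cd4 itself and acts in thymocytes that carry both coreceptors, so that mature CD4+ and CD8+ T cells are both descended from recombined cells. Whether the WT mice carried CD4-Cre is not stated for these libraries. If they lacked it, loss of Sdha and presence of the transgene cannot be told apart in this design. The labels do not say whether the libraries of a group came from separate mice, so p values measure the spread between libraries, which may be technical.

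CD4 and CD8 are coreceptors. CD4 binds MHC class II and CD8 binds MHC class I, and both bring the kinase LCK to the T cell receptor. CD4 acts as a single chain, whereas CD8 on conventional T cells is a dimer of CD8α, encoded by Cd8a, and CD8β, encoded by Cd8b1. CD8α can also pair with itself, a form known from intestinal and gamma-delta T cells. Thymocytes pass through a stage with both coreceptors and then keep one. ThPOK, encoded by Zbtb7b, holds the CD4 fate and represses Cd8a and Cd8b1. RUNX3 holds the CD8 fate, activates the Cd8 locus, and silences Cd4 through an intronic silencer. RUNX1 binds the same DNA motif as RUNX3 and represses Cd4 in thymocytes before either coreceptor is kept.

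In the mm10 annotation (GENCODE vM21), Cd8b1 lies on the plus strand of chromosome 6 from 71322788 to 71337494 and Cd8a follows on the same strand from 71373427 to 71379173. Cd4 is on the minus strand of the same chromosome from 124864692 to 124888221. Zbtb7b is on chromosome 3 (89377644 to 89394776, minus strand), Runx3 on chromosome 4 (135120652 to 135177990, plus strand), and Runx1 on chromosome 16 (92601466 to 92826149, minus strand). No annotated gene overlaps any of the 6 on the same strand, and Zbtb7b, Runx3, and Runx1 each have 1 overlapping gene on the opposite strand. Between Cd8b1 and Cd8a lies Gm44174, a long intergenic noncoding RNA gene on the same strand (71353035 to 71373284), which ends 143 bp before Cd8a begins.

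RefSeq promoter windows (GRCm38.p6, 250 bases before to 50 after a start) were held for 4 of the 6 genes, 7 windows in all. Cd8a and Runx3 are shown because their levels moved together over libraries and classes. Capitals mark the motif ACCACA or its reverse complement TGTGGT, the core that Runx proteins bind, which was chosen after the windows had been read. The 250 bases before the upstream start of Runx3 (chr4:135120395-135120644, plus strand) hold 2 copies, whereas those before Cd8a (chr6:71373177-71373426, plus strand) hold 0.
Runx3: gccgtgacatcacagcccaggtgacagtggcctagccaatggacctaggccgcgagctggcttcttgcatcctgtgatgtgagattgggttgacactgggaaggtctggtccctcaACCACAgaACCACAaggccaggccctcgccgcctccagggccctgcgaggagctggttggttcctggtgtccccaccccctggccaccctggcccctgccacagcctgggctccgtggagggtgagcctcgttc
Cd8a: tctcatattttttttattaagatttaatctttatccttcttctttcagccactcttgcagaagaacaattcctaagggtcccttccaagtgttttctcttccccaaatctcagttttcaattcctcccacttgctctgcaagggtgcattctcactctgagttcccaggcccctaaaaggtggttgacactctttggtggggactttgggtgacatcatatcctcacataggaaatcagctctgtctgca
The longest run shared by the upstream windows of Runx3 and Runx1 has 18 bases with 2 copies of the motif, and 3 of 32851 windows hold it. These windows were compared because each holds 2 copies, so the rarity of the run is a description and not a test.
Runx1 and Runx3: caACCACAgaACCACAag
In Runx3 the run begins at base 115 of the window, and in Runx1 at base 277, after the start. A copy of the motif on either strand is found in 16.8% of all windows of this length and 2 or more copies in 1.81%. One of the 2 Zbtb7b windows held a single copy and the other held 0. A match is a description of sequence and not evidence of binding.

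Libraries held 1395 to 1801 cells and 10947009 to 51398728 UMIs (unique molecular identifiers, each a counted RNA molecule). The median cell held 7844 UMIs in WT and 8766 in SDHA-KO before stimulation, and 13794.5 and 25360.5 after it. Libraries shared 23 cell barcodes, carried by 46 of 12846 cells. Sdha fell to 46.6 and 46.1 CPM in unstimulated SDHA-KO from 98.0 and 99.1 in WT, and to 37.6 and 34.1 from 74.7 and 73.9 after stimulation. The authors' CD4 class made up 65.0% ± 2.70 of unstimulated WT cells and 78.1% ± 0.917 of unstimulated SDHA-KO cells (SD, n = 2 libraries, as throughout). After stimulation it made up 52.1% ± 2.30 in WT and 72.7% ± 5.26 in SDHA-KO. A list of 9 gamma-delta T cell markers summed to 15.6 CPM or less in each stimulated WT library and to 100.3 and 131.5 CPM in stimulated SDHA-KO. Unstimulated libraries had 21.1 and 22.0 CPM of these markers in WT and 75.1 and 104 in SDHA-KO. Trdc, the constant region of the T cell receptor delta chain, was found in 57.6% ± 2.15 of stimulated SDHA-KO CD8-class cells against 4.29% ± 0.879 in WT. Mitochondrial UMIs averaged 13.8% to 17.5% per cell in the classes of stimulated WT libraries and 3.55% to 9.91% in those of stimulated SDHA-KO. The limit of 10% used below therefore need not keep equal shares of the cells of each genotype. The 8 CD3, T cell receptor, and Lck genes that mark T cells summed to 2682 to 5609.9 CPM in a library. Of the other lists, 8 myeloid and dendritic cell markers summed to at most 2.92 CPM in a library, and 7 B cell markers ranged from 37.4 to 184 CPM. In the CD8 class B cell markers were at 345 CPM in the first stimulated SDHA-KO library and at 50.0 to 64.1 in the other stimulated libraries. The sum of 6 NK cell markers was 121 and 124 CPM in unstimulated WT, 68.1 and 46.0 in unstimulated SDHA-KO, 30.3 and 31.4 in stimulated WT, and 61.7 and 63.8 in stimulated SDHA-KO. Of these 6, the 4 that passed the filter were all called higher in SDHA-KO after stimulation, beside 26.2% of all genes. Before stimulation 0 were called higher and 1 lower, beside 0.668% and 1.08% of all genes. The part of these markers' cells in the results was not tested. In sums over all T cells, a smaller share of cells of a class and less RNA per cell cannot be told apart.

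Cd4 was higher in unstimulated SDHA-KO T cells than in any other group, and the excess was seen in single CD4-class cells and in every CD4 subtype. This contrast is the one known when the genes were chosen, and it is given as a description. Levels below are CPM, UMIs of a gene scaled to a common library total, with TMM factors (edgeR's correction for differences in RNA composition). In sums of all T cells the unstimulated WT libraries had 109.0 and 102 CPM of Cd4, against 439.5 and 501 in SDHA-KO, a log2 fold change of 2.16 ± 0.0965 (SE). Within the CD4 class it was 168.5 ± 0.574 in WT and 632 ± 48.1 in SDHA-KO. The share of CD4-class cells with a Cd4 UMI was 64.0% and 65.0% in the WT libraries and 93.3% in both SDHA-KO libraries. CD8-class cells, which should lack it, had a Cd4 UMI in 0.684% ± 0.0486 of WT cells and 3.43% ± 1.67 of SDHA-KO cells at median depths of 9092 and 10317.5 UMIs, beside 7265.5 and 8339 in the CD4 class. With each cell thinned to 5000 UMIs, which left out 161 of 1884 WT and 135 of 2431 SDHA-KO CD4-class cells, the shares of the CD4 class were 53.1% ± 0.311 and 86.6% ± 1.21.

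**Figure D1:**
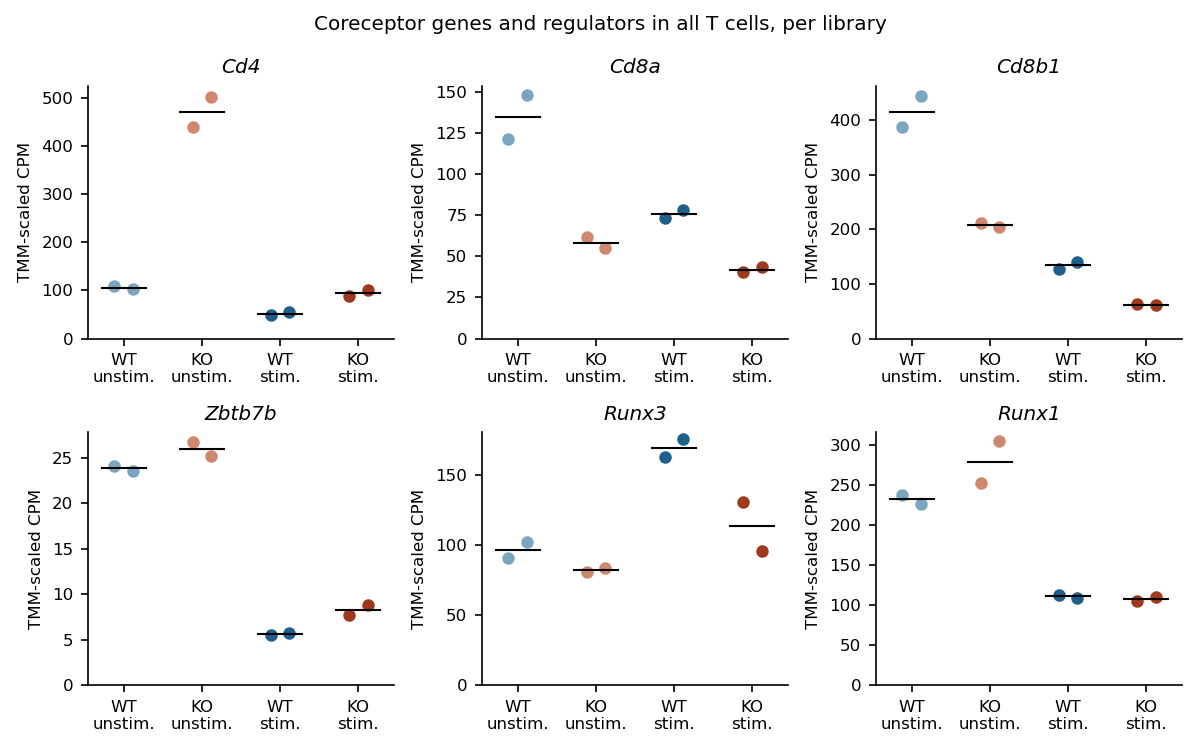
TMM-scaled CPM of the 6 genes over all T cells (y axes start at 0) in the 4 groups, with 1 point per library and a line at the mean of 2 libraries. Cd4 in unstimulated SDHA-KO, at 439.5 and 501 CPM, stands above all other libraries, and Cd8a and Cd8b1 are lower in SDHA-KO than in WT in both states.

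The number of Cd4 UMIs in a cell showed the same contrast. The median CD4-class cell held 1 Cd4 UMI in both unstimulated WT libraries and 4 and 5 in the SDHA-KO libraries. Cells with 5 or more made up 1.39% and 1.68% of the class in WT and 48.9% and 52.8% in SDHA-KO. After stimulation, when the median cell of the class held 14564 UMIs in WT and 24178 in SDHA-KO, the median was 2 in both WT libraries and 3 in both SDHA-KO libraries, and 22.2% and 24.1% of WT cells against 35.97% and 36.4% of SDHA-KO cells held 5 or more. With cells thinned to 5000 UMIs, a Cd4 UMI was found in 47.6% ± 0.202 of the stimulated WT class and 50.1% ± 1.23 of the stimulated SDHA-KO class.

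**Figure D2:**
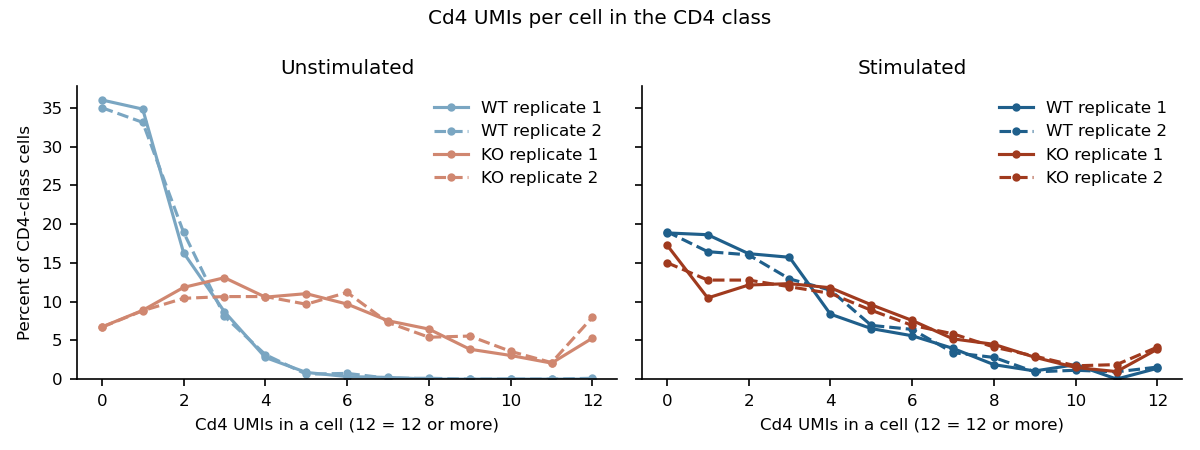
Percent of CD4-class cells (y axis) by the number of Cd4 UMIs in the cell (x axis, 12 standing for 12 or more), unstimulated on the left and stimulated on the right, with 1 line per library. Unstimulated WT cells cluster at 0 and 1 UMI, whereas SDHA-KO cells spread to 12 and more, and the stimulated curves lie closer together.

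The subtypes the authors annotated differed in how far Cd4 was raised. Values by subtype are CPM without TMM scaling. In the 5 naive CD4 subtypes of the unstimulated state Cd4 was 119 to 206 CPM in WT and 465 to 786 in SDHA-KO. Naive1 cells, the naive subtype with the highest SDHA-KO mean, had 176 ± 2.32 against 786 ± 49.6. Regulatory T cells (Treg) had 111 ± 13.2 against 293 ± 53.2. Effector memory cells (Tem1) had 209.7 ± 2.98 against 252 ± 16.4, the smallest gap of the 7 subtypes. In all 7, both SDHA-KO libraries lay above both WT libraries.

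In stimulated cells Cd4 was again higher in SDHA-KO. Over all T cells the WT libraries had 49.5 and 54.2 CPM and the SDHA-KO libraries 88.9 and 101.2, without overlap. The log2 fold change was 0.87 ± 0.0916 (edgeR quasi-likelihood test, adjusted p = 7.17e-05). Within the CD4 class the levels were 93.1 ± 3.45 and 142.4 ± 3.73. Of 11 stimulated CD4 subtypes, 10 had both SDHA-KO libraries above both WT libraries, and Tem7, with 156 ± 49.5 in WT and 114 ± 3.15 in SDHA-KO, had them below. The 5 central memory subtypes held 185 to 216 CPM in WT and 413 to 843 in SDHA-KO, whereas effector memory subtypes other than Tem7 held 50.7 to 69.7 and 109 to 162. The make-up of the class differed, since central memory cells were 62.1% ± 1.02 of it in stimulated WT (1134 of 1826 cells) and 19.1% ± 2.40 in stimulated SDHA-KO (459 of 2421). The knockout effect after stimulation less that before it was −1.28 ± 0.131 on the log2 scale. It is given with no test, since it holds the unstimulated contrast known when the genes were chosen. Stimulation went with lower Cd4, with a log2 fold change of −1.03 ± 0.0954 in WT and −2.31 ± 0.0940 in SDHA-KO. The unstimulated level of each genotype is part of the known contrast, so these values are also given with no test. These sums count Cd4 relative to all UMIs, and stimulated cells held more UMIs.

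**Figure D3:**
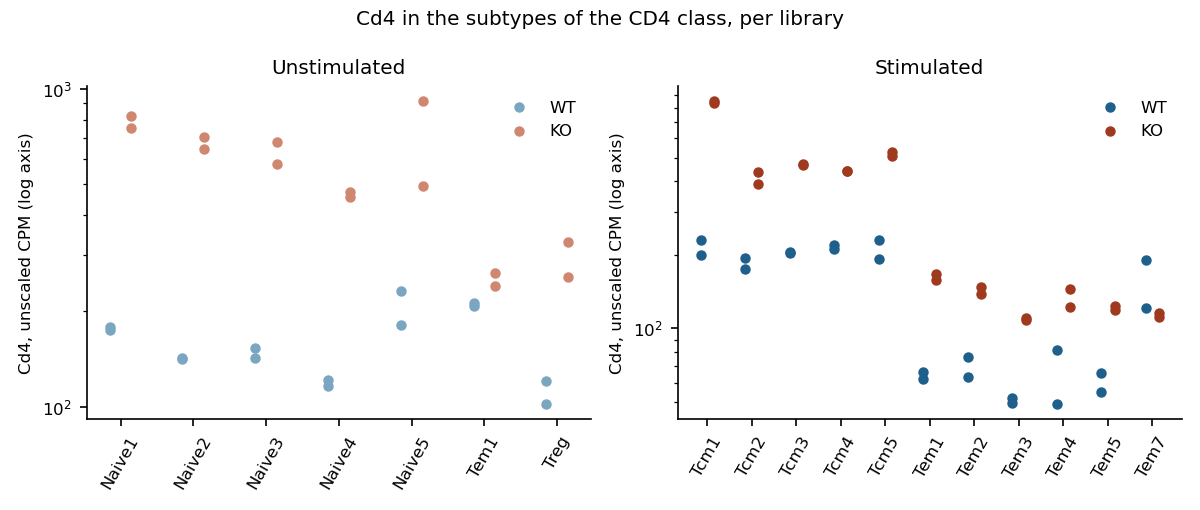
Cd4 in unscaled CPM (log axis) in each subtype of the CD4 class (x axis), WT and SDHA-KO side by side, with 1 point per library, unstimulated on the left and stimulated on the right. SDHA-KO points lie above WT points in every unstimulated subtype and in all stimulated subtypes but Tem7, and Tem1 has the smallest unstimulated gap.

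Few Cd4 UMIs were counted in CD8-class cells, and the genotypes did not overlap before stimulation. The WT libraries held 5 and 7 Cd4 UMIs unstimulated and the SDHA-KO libraries 50 and 14. Cells with both Cd8a and Cd8b1 UMIs and no Trdc UMI had a Cd4 UMI in 1 of 381 and 4 of 481 WT cells and in 6 of 216 and 5 of 256 SDHA-KO cells. After stimulation the shares were 3.35% and 4.63% in WT and 6.75% and 5.56% in SDHA-KO. Over the class the order of the 4 means was unstimulated SDHA-KO (9.57 ± 7.67 CPM), its stimulated counterpart (7.63 ± 1.55), WT after stimulation (4.44 ± 0.267), and WT before it (1.495 ± 0.0944), and the libraries of the first pair overlapped. The part of free RNA from CD4 cells was not tested.

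Cd8a and Cd8b1 were both lower in SDHA-KO T cells, in both states. Over all T cells Cd8a was 122 and 148 CPM in unstimulated WT and 61.9 and 54.9 in SDHA-KO, a log2 fold change of −1.21 ± 0.105 (edgeR, adjusted p = 0.00116). Cd8b1 was 389 and 444 in WT and 211 and 205 in SDHA-KO, a log2 fold change of −1.001 ± 0.0813 (edgeR, adjusted p = 0.000919). The groups did not overlap for either gene. Of the 5 genes other than Cd4, these 2 were called, both lower, and the 3 regulators were not, beside 1.75% of all genes tested in this contrast, 0.668% higher and 1.08% lower. After stimulation the log2 fold change of Cd8a was −0.86 ± 0.0979 (edgeR, adjusted p = 0.000111) and that of Cd8b1 −1.11 ± 0.0808 (edgeR, adjusted p = 1.24e-05). In that contrast 5 of 6 genes were called, Cd4 and Zbtb7b higher and Cd8a, Cd8b1, and Runx3 lower, beside 47.2% of all genes tested, 26.2% higher and 21.0% lower. The CD8 class was also a smaller share of SDHA-KO cells, 21.9% ± 0.917 against 35.0% ± 2.70 unstimulated and 27.3% ± 5.26 against 47.9% ± 2.30 stimulated.

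Within the CD8 class the levels kept this order, and they moved with Trdc. Class levels are given as a description, since clusters were named from Cd4 and Cd8a. Cd8a was 344 ± 22.8 CPM in WT and 224 ± 2.43 in SDHA-KO before stimulation, and 151.5 ± 8.73 and 92.2 ± 20.9 after it, and no neighbours in that order overlapped. Cd8b1 followed the same order at 1049 ± 18.6, 776 ± 46.6, 262 ± 19.2, and 125 ± 21.1. By stimulated subtype, SDHA-KO lay below WT without overlap in 8 of 9 for Cd8a and 9 of 9 for Cd8b1. By unstimulated subtype the counts were 5 of 5 and 3 of 5. Among stimulated SDHA-KO cells of the class with a Trdc UMI, 29.3% ± 1.20 had a Cd8b1 UMI, against 85.7% ± 1.48 of those with none. In stimulated WT cells with no Trdc UMI that share was 91.0% ± 1.60. In CPM without TMM scaling, stimulated CD8-class cells with no Trdc UMI had 181 ± 8.03 of Cd8a in WT and 191 ± 40.9 in SDHA-KO, groups that overlapped. Summed over these cells alone, the log2 fold change of Cd8a between the stimulated groups was 0.10, in place of −0.72 over the whole class. For Cd8b1 it was −0.32, in place of −1.07. Unscaled Cd8b1 in these cells was 314 ± 17.4 CPM in WT and 247.0 ± 41.4 in SDHA-KO, without overlap. In unstimulated cells with no Trdc UMI the Cd8a libraries of the genotypes did not overlap, with 289.8 ± 16.01 in WT and 230.1 ± 1.17 in SDHA-KO. Nor did those of Cd8b1, with 887 ± 10.3 in WT and 799 ± 32.8 in SDHA-KO. The part of gamma-delta T cells in the class values was otherwise not tested.

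The balance of the CD8 chains differed between resting and stimulated cells. The ratio of Cd8b1 to Cd8a UMIs in the CD8 class was 3.16 and 2.95 in unstimulated WT and 3.35 and 3.59 in unstimulated SDHA-KO. It was 1.71 and 1.75 in stimulated WT and 1.42 and 1.31 in stimulated SDHA-KO. The 4 groups did not overlap. Fold changes with stimulation are relative to all UMIs, of which stimulated cells held more. In sums over all T cells, stimulation went with a log2 fold change of −1.63 ± 0.0814 for Cd8b1 and −0.83 ± 0.0993 for Cd8a in WT (edgeR, adjusted p = 7.34e-08 and 4.16e-05). In SDHA-KO the values were −1.74 ± 0.0829 and −0.47 ± 0.103 (edgeR, adjusted p = 4.89e-08 and 0.00217). The 5 genes other than Cd4 were called in the stimulation contrast of each genotype, Runx3 higher and the others lower. Of all genes tested, 68.9% were called in WT (37.0% higher, 31.9% lower) and 71.1% in SDHA-KO (38.5% higher, 32.6% lower).

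Coreceptor transcripts of the other lineage were also found in CD4-class cells. Cd8b1 UMIs were in 8.75% ± 1.01 of unstimulated WT cells of the class and in 25.9% ± 0.930 of stimulated ones, at 7265.5 and 14564 median UMIs. Thinned to 5000 UMIs per cell, these shares were 6.25% ± 0.867 and 10.5% ± 0.325. Without thinning, and so at unequal depth, Cd8a UMIs were in 1.38% ± 0.282 and 12.7% ± 0.362. The Cd8b1 to Cd8a ratio in these CD4-class cells was 4.64 and 5.27 in unstimulated WT and 2.21 in both stimulated WT libraries, in each state above that of the CD8 class. The part of free RNA from CD8 cells was not tested.

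Cells with UMIs of both coreceptors were more frequent after stimulation, but not at equal depth in SDHA-KO. In WT they went from 4.27% ± 0.0572 to 14.2% ± 1.09 of all cells, and in SDHA-KO from 6.19% ± 0.810 to 16.8% ± 0.0587. Thinned to 5000 UMIs, the shares went from 2.35% ± 0.124 to 3.19% ± 0.371 in WT and from 4.11% ± 0.971 to 3.17% ± 0.384 in SDHA-KO. With at least 2 UMIs of each coreceptor they went from 0.381% to 3.96% in WT and from 1.37% to 5.92% in SDHA-KO. Most lay in the CD4 class, where 23.5% ± 0.0438 of stimulated WT and 21.1% ± 0.940 of stimulated SDHA-KO cells held both. In stimulated WT these cells had a median of 33959 UMIs (mean of the medians of 2 libraries) against 14636 for CD4-class cells with Cd4 alone, whereas in unstimulated WT the medians were 7090.0 and 7522. All 3 coreceptor transcripts were held by 0.276% of WT and 0.829% of SDHA-KO cells before stimulation and by 3.16% and 2.23% after it. No doublet caller was run, and the deeper double cells were not separated from pairs of cells in 1 droplet.

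Cells with none of the 3 coreceptor transcripts also differed between groups. In the CD4 class they were 32.4% ± 1.64 of unstimulated WT cells and 5.63% ± 0.105 of unstimulated SDHA-KO cells. In the CD8 class they went from 2.56% ± 0.0593 to 6.19% ± 0.959 with stimulation in WT, and from 10.5% ± 0.861 to 35.9% ± 3.69 in SDHA-KO. A Trdc UMI was found in 88.0% ± 0.938 of the 329 stimulated SDHA-KO CD8-class cells without a coreceptor transcript. In unstimulated SDHA-KO it was found in 74.7% ± 7.46 of 71 such cells, and in unstimulated WT in 46.4% ± 5.05 of 26. Sdha in the stimulated SDHA-KO CD8 class was 74.8 ± 1.95 CPM (unscaled) in cells without a coreceptor transcript and 49.1 ± 2.64 in those with Cd8 alone, whereas the same 2 sets of WT cells had 86.6 ± 8.38 and 87.9 ± 2.88.

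**Figure D4:**
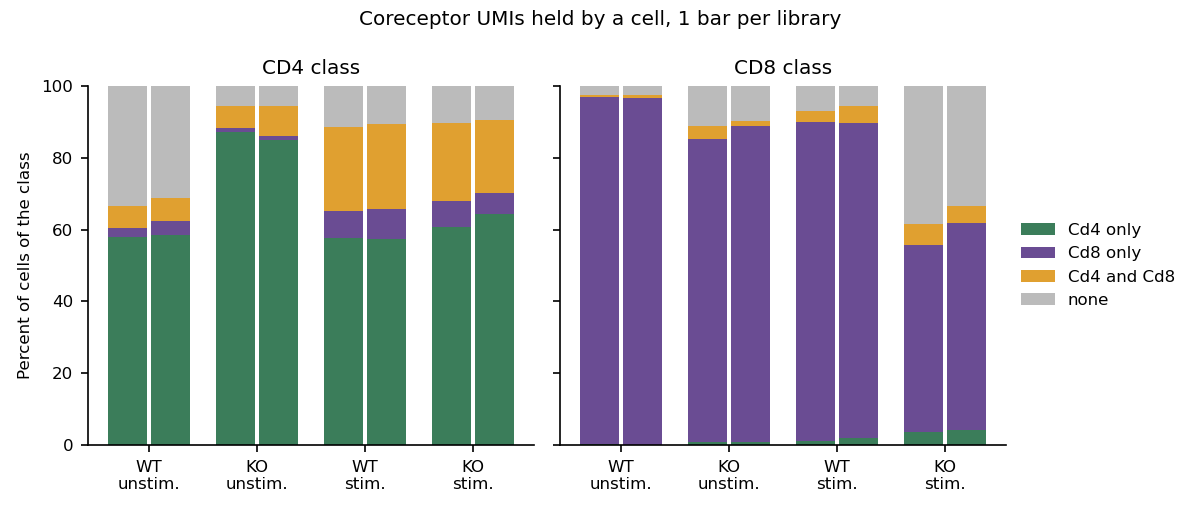
Percent of CD4-class cells (left) and CD8-class cells (right) that held UMIs of Cd4 only, of Cd8a or Cd8b1 only, of both, or of none, with 1 stacked bar per library. Cells with none shrink in the unstimulated SDHA-KO CD4 class and make up 35.9% of the stimulated SDHA-KO CD8 class on average.

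To compare the regulators without relying on clusters, cells were split by coreceptor UMIs alone. Cd4-only cells had a Cd4 UMI and none of Cd8a or Cd8b1, and Cd8-only cells the reverse. All 3 regulators differed between them in both states, beside 31.5% of genes called in unstimulated cells (15.7% higher in Cd4-only cells, 15.8% lower) and 37.1% in stimulated cells (17.5% higher, 19.6% lower). Zbtb7b was higher in Cd4-only than in Cd8-only cells. Its unstimulated levels were 35.1 and 34.9 CPM in WT Cd4-only cells against 1.03 and 1.98 in WT Cd8-only cells, and 32.7 and 29.0 against 1.88 and 0.606 in SDHA-KO. The log2 fold change was 4.54 ± 0.190 (edgeR, adjusted p = 1.11e-18) unstimulated and 2.91 ± 0.127 (edgeR, adjusted p = 2.00e-06) stimulated. In unstimulated WT a Zbtb7b UMI was found in 20.5% and 23.0% of CD4-class cells. In the CD8 class it was found in 3 of 462 cells of the first library and 0 of 557 of the second, where a count of 0 allows a share of up to 0.539% by counting error.

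Runx3 showed the opposite pattern, with expression in both sets. It was 30.5 and 28.7 CPM in unstimulated WT Cd4-only cells and 172 and 180 in Cd8-only cells, a log2 fold change over both genotypes of −2.59 ± 0.0585 (edgeR, adjusted p = 8.55e-26). After stimulation the value was −1.81 ± 0.0421 (edgeR, adjusted p = 9.64e-08). In Cd4-only cells Runx3 was 68.9 and 79.6 CPM in stimulated WT and 75.1 and 58.4 in stimulated SDHA-KO, groups that overlapped. In Cd8-only cells it was 294 and 307 in WT and 215 and 190 in SDHA-KO, without overlap. The knockout effect differed between the 2 sets by 0.41 ± 0.0837 on the log2 scale (edgeR, adjusted p = 0.0175), beside 12.7% of genes called for such a difference, and that of Zbtb7b and Runx1 was not called (0.90 and 0.21, edgeR, adjusted p = 0.0786 and 0.147). The call was lost without the first stimulated SDHA-KO library (0.30, edgeR, adjusted p = 0.0770) and among cells with under 10% mitochondrial UMIs (0.12, edgeR, adjusted p = 0.533). Unstimulated, that difference was −0.03 ± 0.126 (edgeR, adjusted p = 0.973), beside 0.338% of genes called.

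Runx1 was higher in Cd4-only cells, unlike Runx3. Unstimulated WT had 287 and 283 CPM in Cd4-only and 113 and 110.3 in Cd8-only cells, and unstimulated SDHA-KO 278 and 329 against 92.0 and 102. The log2 fold change was 1.501 ± 0.0470 unstimulated (edgeR, adjusted p = 4.81e-22) and 2.22 ± 0.0410 stimulated (edgeR, adjusted p = 3.77e-08). Direction and call of all 3 regulators were kept in each of 12 alternatives per state.

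**Figure D5:**
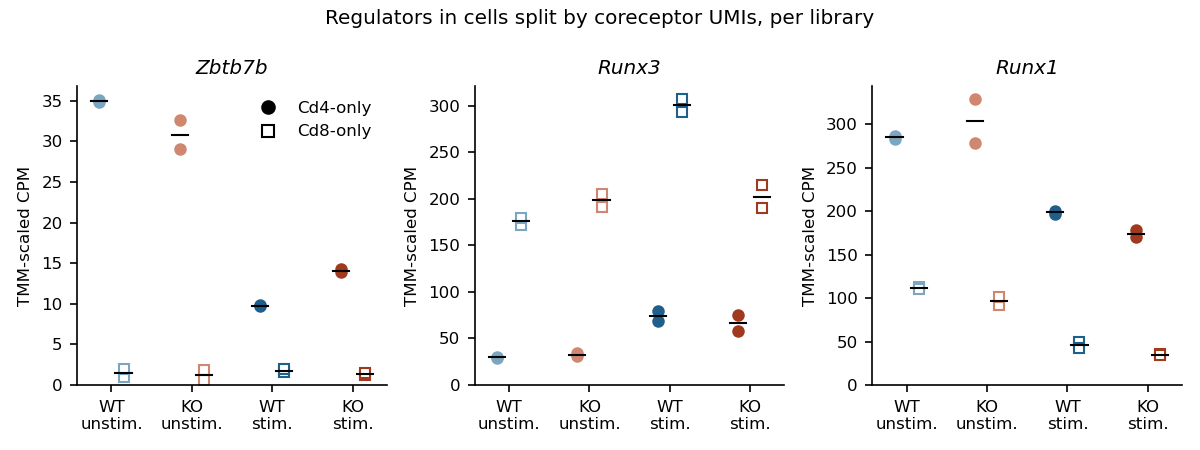
TMM-scaled CPM of Zbtb7b, Runx3, and Runx1 (y axes start at 0) in Cd4-only cells (filled circles) and Cd8-only cells (open squares) of the 4 groups, with 1 symbol per library and lines at the means. Zbtb7b and Runx1 are higher in Cd4-only cells and Runx3 in Cd8-only cells of every library, and Runx3 in stimulated Cd8-only cells is lower in SDHA-KO.

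Within the CD4 class the order of the Runx3 means was WT after stimulation (84.9 ± 10.6 CPM), SDHA-KO after it (65.8 ± 7.08), and then SDHA-KO (38.3 ± 1.42) and WT (31.6 ± 1.74) before it, with no overlap between neighbours. Within the CD8 class WT after stimulation (268 ± 11.95) was highest, and the other groups, at 194 to 215, overlapped. Runx1 in the CD4 class was 340.2 ± 43.6 in SDHA-KO and 303 ± 3.91 in WT before stimulation, and 171 ± 6.49 in WT and 149 ± 6.29 in SDHA-KO after it, again with no overlap.

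Relative to all UMIs, stimulation went with less Zbtb7b and Runx1 and more Runx3. Stimulated cells held more UMIs, so a lower CPM need not mean fewer UMIs in a cell. The unstimulated WT libraries, of 1395 and 1508 cells, held 233 and 261 Zbtb7b and 2295 and 2500 Runx1 UMIs. The stimulated WT libraries, of 1703 and 1801 cells, held 286 and 324 Zbtb7b and 5893 and 6128 Runx1 UMIs. Over all T cells Zbtb7b was 24.1 and 23.6 CPM in unstimulated WT and 5.47 and 5.73 in stimulated WT, a log2 fold change of −2.09 ± 0.106 (edgeR, adjusted p = 8.41e-08). In SDHA-KO it was 26.7 and 25.2 unstimulated and 7.71 and 8.80 stimulated, a log2 fold change of −1.65 ± 0.101 (edgeR, adjusted p = 2.62e-07). Runx1 had log2 fold changes of −1.07 ± 0.0904 in WT (edgeR, adjusted p = 3.30e-06) and −1.38 ± 0.0903 in SDHA-KO (edgeR, adjusted p = 4.40e-07). Runx3 rose from 90.7 and 102 to 163 and 176 CPM in WT, by 0.81 ± 0.133 on the log2 scale (edgeR, adjusted p = 0.000370). In SDHA-KO it went from 81.0 and 83.4 to 131.3 and 95.6 CPM, by 0.46 ± 0.132 (edgeR, adjusted p = 0.00990). That last call was lost among cells with no Trdc UMI (0.08, edgeR, adjusted p = 0.541), without the first unstimulated SDHA-KO library (0.45, edgeR, adjusted p = 0.0585), and without the first stimulated one (0.20, edgeR, adjusted p = 0.0779).

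Between the genotypes, regulators were called only after stimulation, and not all of them. Runx1 was not called over all T cells or in the CD4 class, and Zbtb7b was not in the CD8 class. Of all genes, 47.2% were called between the stimulated genotypes over all T cells. Between the unstimulated genotypes over all T cells, Runx1 was at 0.27 ± 0.0902 (edgeR, unadjusted p = 0.0147, adjusted p = 0.166). Runx3 was at −0.23 ± 0.138 and Zbtb7b at 0.12 ± 0.103 (edgeR, adjusted p = 0.414 and 0.590). Unstimulated, 0 of 3 regulators were called in the CD4 class, beside 1.10% of genes (0.526% higher, 0.575% lower), with edgeR and with DESeq2, and 0 had an unadjusted p under 0.05 in either. In the unstimulated CD8 class Runx3 and Runx1 were not called, beside 0.947% of genes (0.283% higher, 0.664% lower), and neither had an unadjusted p under 0.05 with edgeR or DESeq2. Zbtb7b had 3 and 0 UMIs in WT and 5 and 2 in SDHA-KO there, too few to show a difference, and passed the filter through the stimulated libraries. Over all stimulated T cells Zbtb7b was higher in SDHA-KO by 0.56 ± 0.100 (edgeR, adjusted p = 0.00144) and Runx3 lower, at −0.58 ± 0.126 (edgeR, adjusted p = 0.00433), whereas Runx1 was at −0.04 ± 0.0884 (edgeR, adjusted p = 0.715). The share of CD4-class cells was higher in the same SDHA-KO libraries, at 72.7% against 52.1%.

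Within the stimulated CD4 class, 2 of 3 regulators were called, beside 43.2% of genes (22.7% higher, 20.5% lower). Zbtb7b was 9.06 and 9.09 CPM in WT and 11.6 and 12.1 in SDHA-KO (log2 fold change 0.38 ± 0.0981, edgeR, adjusted p = 0.00871). Runx3 was 77.4 and 92.3 in WT and 60.8 and 70.8 in SDHA-KO (−0.37 ± 0.0991, edgeR, adjusted p = 0.0114). Neither gene's groups overlapped. By subtype, Runx3 was lower in SDHA-KO without overlap in 5 of 11, higher in 1, and overlapping in 5. Runx1 was not called (−0.20 ± 0.0879, edgeR, adjusted p = 0.0874), but was at −0.41 in cells thinned to 5000 UMIs (edgeR, adjusted p = 0.00105) and at 0.03 among cells with under 10% mitochondrial UMIs (edgeR, adjusted p = 0.842). The Runx3 call was lost without the second stimulated WT library (−0.22, edgeR, adjusted p = 0.159) or the second stimulated SDHA-KO library (−0.25, edgeR, adjusted p = 0.101). Zbtb7b lost its call among cells with under 10% mitochondrial UMIs (0.21, edgeR, adjusted p = 0.134).

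Within the stimulated CD8 class, Runx3 and Runx1 were called, both lower, beside 50.4% of genes (26.8% higher, 23.5% lower). Runx3 was 259 and 276 CPM in WT and 217 and 172 in SDHA-KO (−0.46 ± 0.102, edgeR, adjusted p = 0.00308). It was lower in SDHA-KO in 8 of 9 subtypes without overlap of libraries, for example 476 ± 13.7 against 282 ± 38.1 unscaled CPM in central memory cells (Tcm2). Cells of the class with no Trdc UMI had 313 ± 8.63 unscaled CPM of Runx3 in WT and 169.6 ± 21.3 in SDHA-KO, and those with a Trdc UMI had 285 ± 13.1 and 247 ± 47.1. Runx1 was 43.9 and 38.8 in WT and 32.1 and 27.9 in SDHA-KO (−0.46 ± 0.0938, edgeR, adjusted p = 0.00188). Among cells with no Trdc UMI the Runx1 difference was 0.03 (edgeR, adjusted p = 0.841), and unscaled levels were 48.7 ± 3.97 in WT and 48.6 ± 7.51 in SDHA-KO. SDHA-KO cells with a Trdc UMI had 23.9 ± 2.06. The Runx1 call was also lost among cells with under 10% mitochondrial UMIs (−0.14, edgeR, adjusted p = 0.313).

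The change of the knockout effect with stimulation was called for Zbtb7b (higher) among the 5 genes other than Cd4, beside 27.0% of genes tested (15.6% higher, 11.4% lower). For Zbtb7b it was 0.44 ± 0.144 (edgeR, adjusted p = 0.0487), which was called in 4 of 17 alternatives, with adjusted p from 0.00718 to 0.451. For Cd8a it was 0.35 ± 0.143 (edgeR, adjusted p = 0.0952), for Cd8b1 −0.11 ± 0.114 (edgeR, adjusted p = 0.533), for Runx3 −0.35 ± 0.187 (edgeR, adjusted p = 0.205), and for Runx1 −0.31 ± 0.126 (edgeR, adjusted p = 0.0979). Among cells with no Trdc UMI Runx3 was called at −0.71 (edgeR, adjusted p = 0.00603) and Cd8a at 0.41 (edgeR, adjusted p = 0.0373). Thinned to 5000 UMIs, Cd8b1 was called at −0.44 (edgeR, adjusted p = 0.0104), Runx3 at −0.53 (edgeR, adjusted p = 0.0409), and Runx1 at −0.35 (edgeR, adjusted p = 0.0418).

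A list of 24 other regulators of the coreceptor loci or of the CD4 and CD8 fates gave the wider setting. Between unstimulated genotypes 0 of 24 were called over all T cells by edgeR (3 with an unadjusted p under 0.05, and 1 called by DESeq2). Between stimulated genotypes over all T cells, 11 were higher and 4 lower in SDHA-KO, beside 26.2% and 21.0% of all genes. The median log2 fold change was 0.18 beside 0.003 over all genes. In the CD4 class 10 were higher and 5 lower (median 0.21), beside 22.7% and 20.5% of genes. In the CD8 class 6 were higher and 7 lower (median 0.02), beside 26.8% and 23.5%. The CD4 class was a larger share of SDHA-KO cells, and its part in the values over all T cells below was not tested. Gata3, a factor of the CD4 fate that acts with Zbtb7b, was 41.3 ± 6.04 CPM in WT and 102.4 ± 39.3 in SDHA-KO (1.31 ± 0.208, edgeR, adjusted p = 0.000728). Satb1, a chromatin organizer that acts on Zbtb7b, Runx3, Cd4, and Cd8 in thymocytes, was 441 ± 49.4 and 725 ± 113 (0.72 ± 0.114, edgeR, adjusted p = 0.000716). Socs1, a cytokine signaling inhibitor, and Runx2, the third Runx factor, were also among the 4 largest rises, at 0.98 ± 0.204 and 0.82 ± 0.109 (edgeR, adjusted p = 0.00339 and 0.000268). Bcl11b, a factor of T lineage commitment, fell from 164 ± 6.44 to 116.0 ± 10.6 (−0.50 ± 0.0767, edgeR, adjusted p = 0.000577). Stat5b, Ikzf1, and Tcf3 were the other falls, at −0.43, −0.27, and −0.23.

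Changes of the list with stimulation are likewise relative to all UMIs. With stimulation, 9 of the 24 were higher and 12 lower in WT, and 10 and 10 in SDHA-KO, beside 37.0% higher and 31.9% lower of all genes in WT and 38.5% and 32.6% in SDHA-KO, with medians of −0.13 and −0.03 beside 0.08 and 0.09 over all genes. Stat5a and the DNA methyltransferase Dnmt1, which keeps Cd4 silent in CD8 cells, had the largest rises in WT, at 1.75 ± 0.119 and 1.51 ± 0.0892. Tcf7 and Lef1, paired factors of naive T cells, and Ets1 had the largest falls, at −2.87 ± 0.0672, −2.03 ± 0.100, and −2.02 ± 0.0963. Tcf7 fell by less in SDHA-KO, at −2.11 ± 0.0650, and the difference between genotypes was 0.75 ± 0.0894 (edgeR, adjusted p = 0.000608). Of 8 partners of the coreceptors in the T cell receptor complex (CD3 chains, constant regions of the receptor, and Lck), all 8 were lower after stimulation in each genotype, beside the 31.9% and 32.6% of all genes, with medians of −1.34 in WT and −0.83 in SDHA-KO. Between unstimulated genotypes 1 of the 8 was lower, Cd3d, at −0.41 ± 0.0749 (edgeR, adjusted p = 0.0291), beside 1.08% of all genes, and between stimulated genotypes 4 were higher, beside 26.2%.

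Between Cd4-only and Cd8-only cells, 9 of the 24 regulators were higher and 5 lower in unstimulated Cd4-only cells, and 13 and 5 in stimulated ones. Of all genes 15.7% were higher and 15.8% lower unstimulated, and 17.5% and 19.6% stimulated. Their median log2 fold changes were 0.09 and 0.13, beside 0.005 and −0.004 over all genes. Gata3 was higher in unstimulated Cd4-only cells by 1.01 ± 0.0878 (edgeR, adjusted p = 6.99e-11).

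The 16 sums of 8 libraries by CD4 and CD8 class were used to describe which genes had the most similar pattern. Points share libraries, and class differences dominate such correlations. Across these sums Cd8a and Runx3 had a Pearson correlation of 0.939, Cd4 and Zbtb7b of 0.940, Cd4 and Runx3 of −0.920, and Runx1 and Runx3 of −0.849. Among 5723 other genes of at least 20 CPM, Cd40lg, the CD40 ligand of helper T cells, was closest to both Cd4 (0.933) and Zbtb7b (0.902). Nkg7, a cytotoxic granule protein, was closest to Runx3 (0.926), Dnajc15 and Ly6c2 to Cd8a (0.947 each), and Foxn3 to Runx1 (0.962). Gm44174, the noncoding RNA gene between Cd8b1 and Cd8a, was closest to Cd8b1 (0.985). It had 161 and 160.4 unscaled CPM in unstimulated WT CD8-class cells, 155 and 152 in SDHA-KO, 40.0 and 34.7 in stimulated WT, and 10.5 and 14.1 in stimulated SDHA-KO. No library of the CD4 class had more than 4.39. Trdc was found in a larger share of stimulated SDHA-KO than stimulated WT CD8-class cells. The part of those cells in the Gm44174 values was not tested.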

How the data were processed

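Counts were made by the authors from 10x Genomics 3′ HT v3.1 libraries with bcl2fastq and Cell Ranger on mm10, per the submitters' processing notes, which give no versions. In Seurat 4.2.0 the authors removed cells with over 6000 (unstimulated) or 8000 (stimulated) genes and clusters without Cd3, and named CD4 and CD8 clusters from Cd4 and Cd8a. The cell table as deposited by the authors holds UMI counts, the percentage of mitochondrial UMIs, and the log10 ratio of Cd4 to Cd8a of each cell. All 12846 cells were used, and no doublet caller was run.

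UMIs were summed per library and cell set. Genes passing filterByExpr (minimum count 10, minimum total 15) were tested with edgeR 4.0.16 (R 4.3.3), quasi-likelihood test, TMM scaling, and Benjamini-Hochberg adjustment over all genes tested (15262 over all T cells), with 0.05 as the threshold. All 8 libraries entered each fit except the split of Cd4-only and Cd8-only cells, which was fitted per state with the library as a block and without Cd4, Cd8a, and Cd8b1. The spread between replicates in the fit over all T cells was 8.71%, and replicates varied by more than counting error. An exact test of 2 against 2 libraries cannot go below p = 0.33. Intervals and floors cover counting error only. DESeq2 1.42.0 was an alternative, as were other scaling, no filter, a replicate block, other cell sets, thinning to 5000 UMIs per cell, and leaving out each library. The fits were tested on simulated data. The members and gene lists were chosen with earlier results of these data known. Genes named are the 6 members, among other regulators the 4 largest rises and falls past the threshold with at least 20 CPM, and the 3 genes most like each member. Tcm2, Naive1, Treg, Tem1, Tem7, Cd3d, and the split value of Gata3 were chosen after values were seen. Replicate numbers did not pair samples.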

Additional observations from a re-analysis of the deposited data

Results flagged for a closer look

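Flags covered the knockout effect's change with stimulation in the members other than Cd4 and the other regulators. They also covered its difference between Cd4-only and Cd8-only cells for Zbtb7b, Runx3, and Runx1. In 7 of these results an effect differed between groups by a test of the difference itself. Outside the flags, 7 of 8 T cell receptor complex partners were called higher for the change with stimulation, beside 15.6% of genes. Split differences of other regulators were also left out, such as Ets1 in stimulated cells (1.05, edgeR, adjusted p = 0.00116). Groups held 2 libraries, too few to look for a library far from the others. The knockout effect on Zbtb7b over all T cells was larger after stimulation by 0.44 ± 0.144 (edgeR, adjusted p = 0.0487), and 4 of 17 alternatives called it. Among the other regulators the same difference was 1.14 for Gata3 (edgeR, adjusted p = 0.0261), 0.75 for Tcf7 (edgeR, adjusted p = 0.000608), 0.55 for Satb1 (edgeR, adjusted p = 0.0309), 0.36 for Smarce1, a subunit of a chromatin remodelling complex (edgeR, adjusted p = 0.0389), and −0.55 for Bcl11b (edgeR, adjusted p = 0.00555), beside 27.0% of all genes called for it. The knockout effect on Runx3 in stimulated cells differed by 0.41 ± 0.0837 between Cd4-only and Cd8-only cells (edgeR, adjusted p = 0.0175), with SDHA-KO below WT in all libraries of Cd8-only cells and overlapping libraries in Cd4-only cells. For Runx3 the value was 0.12 among cells with under 10% mitochondrial UMIs (edgeR, adjusted p = 0.533).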

How the results depend on the processing

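Of 1004 fold changes of the 6 genes under alternatives, 941 kept their side of the threshold, and the called ones among them kept their direction. A fold change that changed sign but was called in neither fit was counted as kept. Of 181 counts of genes called, 163 were equal or close to the main count. The 2 genes called for a change of the knockout effect with stimulation, of which Cd4 holds the contrast known at the choice, became 1 with RLE size factors, without the low-count filter, with DESeq2, and with the replicate block, 4 among cells with no Trdc UMI, 5 among cells thinned to 5000 UMIs, and 1 to 3 when 1 library was left out. Another random draw of the thinning called fewer, so thinned calls near the threshold depend on the draw. The share of all genes called under each alternative is not set beside these counts, so they are not read as results about the members. The replicate block gave 1 because Zbtb7b was lost (0.44, edgeR, adjusted p = 0.0610); deviations of same-numbered libraries correlated from −0.034 to 0.104, so the numbers were not taken as pairs. In the stimulated CD4 class, 2 regulators called became 1 among cells with under 10% mitochondrial UMIs, 3 when thinned, with Runx1 added, and 1 to 3 without 1 library, where a lone library is assumed to vary like the others. In the stimulated CD8 class, 2 became 1 among cells with no Trdc UMI, among cells with under 10% mitochondrial UMIs, and among cells with the UMIs of 1 coreceptor and no Trdc UMI, a set chosen after seeing the data. In that class Cd8a turned from −0.72 to 0.10 with no Trdc UMI and to 0.18 in the last set, Cd8b1 went from −1.07 to −0.32 and −0.22, and Runx1 from −0.46 to 0.03 and 0.11. The cause was not tested. Mitochondrial UMIs were higher in stimulated WT than in stimulated SDHA-KO, so the 10% limit need not keep equal shares of their cells. Thinned to 5000 UMIs, the share of CD4-class cells with a Cd4 UMI was 53.1% and 86.6% in unstimulated WT and SDHA-KO and 47.6% and 50.1% in stimulated, and that of CD8-class cells with a Cd8b1 UMI was 95.1% in unstimulated WT, 70.96% in WT after stimulation, and 36.5% in the stimulated knockout. Cells with both coreceptors were 2.35%, 4.11%, 3.19%, and 3.17% when thinned (WT and SDHA-KO unstimulated, then stimulated), and 0.381%, 1.37%, 3.96%, and 5.92% with 2 UMIs of each. Without composition scaling the median of all genes moved by 0.346 for stimulation in WT and 0.216 in SDHA-KO, by −0.127 for the change of the knockout effect, and by 0.125 in the unstimulated CD8 class. Thinned cells hold few UMIs of these genes, which limits what they can show.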
